A study of Danio rerio and Aquarana catesbeiana with 12 samples.

Results

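Zebrafish retinal pigment epithelium (RPE) samples differed in how much RNA of the inner retina they held, and the 6 zebrafish libraries of the series, which has 12 samples in all, were set apart on that difference. The RPE is the pigmented sheet behind the photoreceptors, and it was dissected from zebrafish given thyroid hormone or a vehicle for 3 weeks. Hormone replicate 1 and vehicle replicates 1 and 2 formed the retina-rich set, and hormone replicates 2 and 3 and vehicle replicate 3 formed the retina-poor set. The sets were selected on measured inner retina transcripts, so differences between them are described here and not tested. All values follow 1 order: hormone 1, vehicle 1 and vehicle 2 for the rich libraries, then hormone 2, hormone 3 and vehicle 3 for the poor ones. Dose, age, strain, and the animals behind each library are not given in the sources used here, so the spread between replicates may be technical.

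The neural retina is layered. Rods and cones lie against the RPE, bipolar, horizontal and amacrine cells form the inner nuclear layer, ganglion cells send the optic nerve, and Muller glia span the depth of the tissue. RPE processes interdigitate with photoreceptor outer segments, so that a dissected RPE sheet can carry pieces of retina with it. The RPE itself recycles vitamin A for the visual pigments, takes up shed outer segments and holds melanin granules.

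An inner retina score, the mean log2 CPM (counts scaled to a common library size) of 139 genes of 6 cell type lists, was 5.16, 4.85 and 4.69 in the rich libraries and 3.88, 4.20 and 3.79 in the poor ones. The members nearest the boundary were vehicle replicate 2 at 4.69 and hormone replicate 3 at 4.20. The first principal component of all records held 50.3% of the variance and placed the rich libraries at 70.9, 28.2 and 15.6 and the poor ones at -47.7, -9.44 and -57.5. The second held 20.7% and separated the treatments, with 21.4 to 33.5 in hormone and -29.3 to -25.8 in vehicle libraries. Total counts ran from 6647597 in hormone replicate 1 to 12530697 in hormone replicate 2, over 18315 transcript records. The highest score thus belonged to the shallowest library, and the part of depth in the split was not tested.

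The 4 genes taken as markers matched the split in part. The level of vsx1, a homeobox factor of bipolar cells, was 67.9, 46.1 and 38.8 CPM in the rich libraries and 11.3, 21.4 and 14.4 CPM in the poor ones. The synaptic fusion protein gene snap25a stood at 191, 107 and 83.5 CPM against 41.9, 66.1 and 31.6 CPM. All rich libraries lay above all poor ones for both genes, with fitted log2 differences adjusted for treatment of 1.82 ± 0.25 and 1.71 ± 0.20 (SE, 6 libraries). Both are inner retina genes, and the sets were selected on such transcripts. Their order thus follows in part from the selection, which the SE does not cover. The Muller glia enzyme glutamine synthetase, glula, did not follow, at 702, 642 and 600 CPM against 690, 834 and 715 CPM (log2 difference -0.16 ± 0.15). The visual cycle isomerase of the pigment epithelium, rpe65a, was at 12453 CPM in the rich hormone library and at 32335 and 26092 CPM in the poor ones. In the vehicle arm, however, rpe65a stood at 7480 and 7211 CPM in the rich libraries and 6688 CPM in the poor one. The libraries are therefore called rich or poor in inner retina transcripts, since neither glula nor rpe65a separated them in both treatments.

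**Figure D1:**
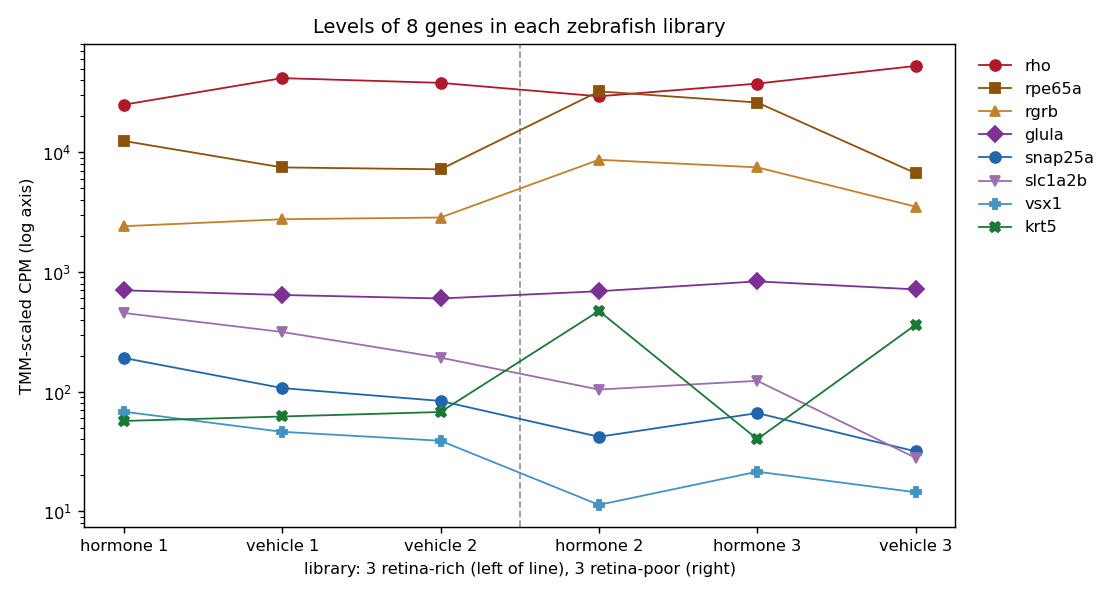
TMM-scaled CPM on a log axis of 8 genes in each library, with 3 retina-rich libraries left of the dashed line and 3 retina-poor ones right of it; lines only join the values of a gene. vsx1, snap25a and slc1a2b lie higher on the left, glula is level, and krt5 is high in hormone replicate 2 and vehicle replicate 3 alone.

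A record was counted as higher in the rich set when its treatment-adjusted log2 difference was at least 1 and the rich libraries lay above the poor ones within hormone and within vehicle. By this rule 1755 of 18315 records were counted higher, 9.58% of all, and 479 were counted lower, 2.62% of all. Scaling by total counts gave 2355 higher and 227 lower, and it moved the median log2 difference of all records from -0.02 to 0.20. Of the 1755 records, 1522 had all 3 rich libraries above all 3 poor ones, and 171 had a log2 difference of at least 2. Hormone replicate 1 was the highest library for 1432 of them (81.6%). Without that library 1562 records were counted higher, but by a looser rule, since the order was then required within vehicle alone. The rich minus poor difference within hormone and that within vehicle, which share no library, had a Pearson r of 0.58 across the 18315 records. Across the 11128 records with a mean of at least 8 CPM it was 0.70. These records share libraries within each arm and are not independent replicates. Both arms were split on inner retina transcripts, so a positive r follows in part from the selection.

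Among records with a gene name and a mean of at least 8 CPM, those with the largest differences toward the rich set included genes of glia and of inhibitory neurons. The glial glutamate transporter gene slc1a2b was at 454, 315 and 192 CPM in the rich libraries and at 104, 123 and 27.9 CPM in the poor ones, a fitted log2 difference of 2.57 ± 0.33. Another gene of the Muller glia list, atp1b4, which belongs to the family of sodium pump beta subunits, reached 32.8, 32.7 and 20.9 CPM against 3.8, 8.03 and 3.5 CPM. The rich libraries lay above the poor ones for both genes without overlap. The orphan receptor gene gpr37l1b, listed in the file under a clone name, stood at 93.1, 55.0 and 34.9 CPM against 19.0, 21.8 and 4.7 CPM. GABA neurons were represented by slc32a1, the vesicular GABA transporter, at 47.5, 22.6 and 20.3 CPM against 9.74, 12.5 and 3.2 CPM (log2 difference 2.35 ± 0.19). The plasma membrane GABA transporter slc6a1b was at 185, 121 and 94.2 CPM against 37.9, 55.8 and 16 CPM. For both transporters all rich libraries lay above all poor ones, and vehicle replicate 3 was the lowest.

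The gene cplx3b, for a complexin of retinal ribbon synapses, had 165, 136 and 122 CPM against 29.3, 35.2 and 21.9 CPM, with a log2 difference of 2.45 ± 0.14. The amacrine cell factor prdm13 reached 29.0, 13.6 and 12.2 CPM against 5.04, 8.65 and 1.7 CPM. Both genes kept the sets apart, cplx3b with little spread inside each. A pair of genes known from the dorsal eye had another order among the rich libraries. The T-box factor gene tbx5b was at 28.0, 4.6 and 13.5 CPM against 3.39, 3.3 and 1.3 CPM, and the retinoic acid synthesis gene aldh1a2 at 38.2, 12.1 and 23.3 CPM against 5.95, 8.14 and 3.0 CPM. In both, vehicle replicate 2 lay above vehicle replicate 1, which was not so for vsx1, snap25a or slc1a2b. The last of the 10, xirp1, an actin-binding gene known from muscle, had a log2 difference of 2.32 ± 0.30. It too was higher in vehicle replicate 2 than in vehicle replicate 1, at 11.3 and 10.1 CPM. The AP-2 factor gene tfap2a was so at 41.6 and 40.1 CPM, so this order was not particular to dorsal genes.

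By cell type, amacrine genes were counted most often: 18 of 23 measured genes were higher and none lower, with a median log2 difference of 1.72. The corresponding counts were 15 of 24 for bipolar cells (median 1.34), 9 of 14 for horizontal cells (median 1.2) and 24 of 38 for synaptic and neuronal genes (median 1.28), with none lower in these lists. All stood above the 9.58% of all records, as the selection of the sets on inner retina transcripts fixes. The GABA synthesis gene gad1b, an abundant member of the amacrine list, was at 215, 199 and 148 CPM in the rich libraries and 39.9, 74.2 and 68.0 CPM in the poor ones. The horizontal cell connexin gene cx55.5 stood at 177, 79.0 and 58.5 CPM against 36.7, 67.6 and 28.9 CPM. Hormone replicate 3 thus lay above vehicle replicate 2 for cx55.5, although the order held within each treatment. The bipolar factor gene bhlhe23 had 33.1, 24.7 and 20.1 CPM against 5.7, 11.3 and 5.4 CPM. In the horizontal cell list prox1, a homeobox factor of the inner nuclear layer, and tfap2a, an AP-2 factor also on the amacrine list, had log2 differences of 1.45 ± 0.15 and 1.81 ± 0.15. The low-abundance members prdm8 and cx52.7 had 2.97 and 1.78, and prdm8 fell under the 3-count level in hormone replicate 2 and vehicle replicate 3.

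Within these lists some abundant members went the other way. The channel gene trpm1b, a copy of the gene for the ON bipolar cell channel that pigment cells also express, was at 557, 1232 and 1285 CPM in the rich libraries and 1327, 1348 and 1698 CPM in the poor ones. Its copy trpm1 stood at 326, 760 and 685 CPM against 687, 682 and 1184 CPM. Their log2 differences were -0.85 ± 0.23 and -0.89 ± 0.16, and their reads may be split between the copies. The AP-2 factor gene tfap2c was level at 226, 256 and 267 CPM against 257, 250 and 289 CPM.

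Ganglion cell and Muller glia genes followed the split less completely than the other inner retina lists. Of all records 9.58% were counted higher and 2.62% lower. Both lists stood above that share counted higher, which follows in part from the selection of the sets on inner retina transcripts. Of 23 ganglion cell genes 7 were counted higher and none lower, and their median difference was 1.12 within hormone but 0.33 within vehicle. The neuronal RNA-binding gene elavl4 was at 38.2, 18.3 and 17.9 CPM against 8.09, 11.2 and 5.6 CPM, and the axonal motor gene kif5aa at 93.7, 62.6 and 57.5 CPM against 24.7, 29.6 and 15.9 CPM. Both separated the sets, as did the synuclein gene sncgb with a log2 difference of 1.38 ± 0.20. The neurofilament gene inaa did not reach the size used for counting, at 0.83 ± 0.19. Without hormone replicate 1 the median of the ganglion cell list was 0.38, and without vehicle replicate 3 it was 1.15. For Muller glia, 7 of 18 genes were counted higher and 1, the connexin gene cx43.4, lower, with a median of 0.56. The list held members at both ends, from atp1b4 at 2.68 to the prostaglandin D synthase gene ptgds at -1.39, which was at 36.0, 186 and 112 CPM against 283, 572 and 91.5 CPM. The chaperone gene clu was at 385, 557 and 494 CPM against 701, 510 and 417 CPM, lower in the rich library of the hormone arm and higher in those of the vehicle arm.

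**Figure D2:**
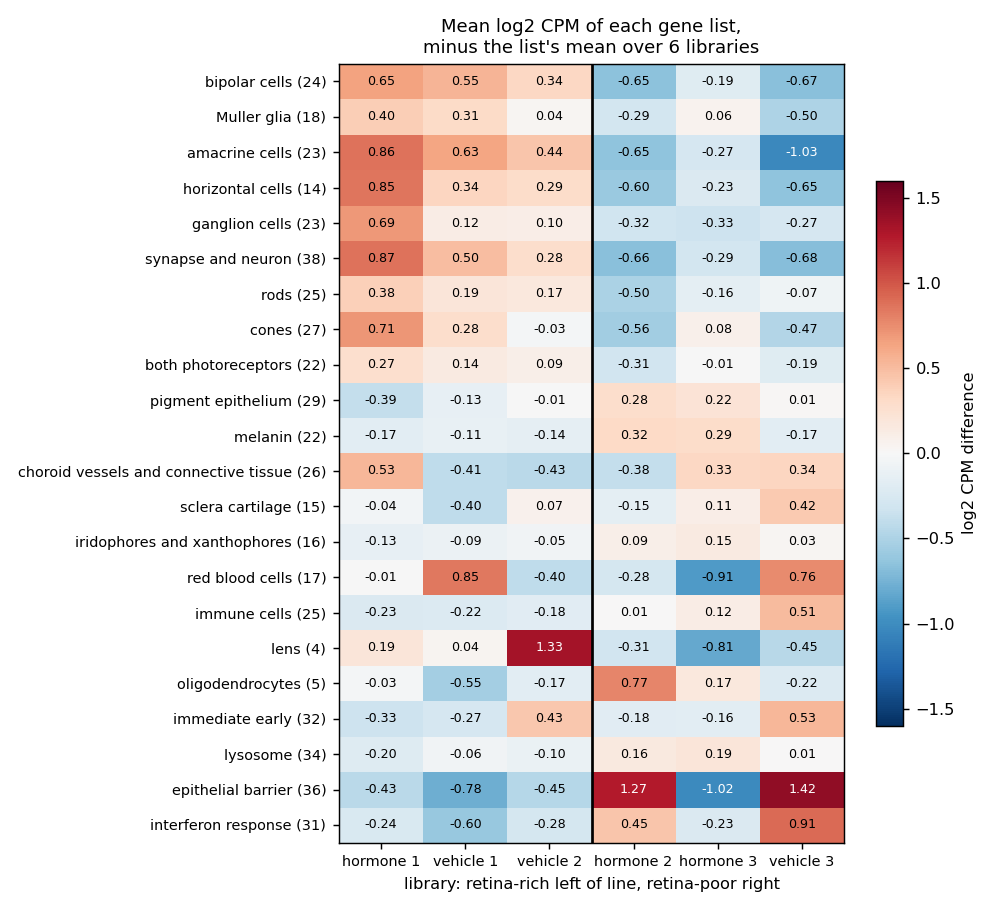
Mean log2 CPM of each gene list in each library, minus the mean of that list over the 6 libraries, with the number of measured genes in brackets; red is above and blue below the mean, and the black line parts rich from poor libraries. Inner retina lists are red on the left and blue on the right, except that Muller glia genes are at 0.06 in hormone replicate 3, while the epithelial barrier list is at 1.27 and 1.42 in hormone replicate 2 and vehicle replicate 3 and at -1.02 in hormone replicate 3.

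Photoreceptor genes took a large share of every library, and few rod genes but more cone genes were counted. Rod genes summed to 5.09% to 9.11% of all counts, with the largest share in vehicle replicate 1. Of 25 rod genes 1 was counted higher, of 22 genes shared by rods and cones 1, and of 27 cone genes 7, with medians of 0.56, 0.53 and 0.78 and none lower. Against the 9.58% of all records, the counted share of rod and shared genes was lower and that of cone genes was higher. Rhodopsin itself, rho, was at 25012, 41728 and 38093 CPM in the rich libraries and 29400, 37553 and 52765 CPM in the poor ones (log2 difference -0.41 ± 0.33). The rod transducin subunit gene gngt1 was also level between the sets, at -0.06 ± 0.20, whereas nr2e3, a nuclear receptor of developing rods, was counted at 34.3, 16.3 and 20.8 CPM against 14.0, 16 and 10.6 CPM. The 2 most abundant rod messages per kilobase, rho and gngt1, thus did not separate the sets. The next, the rod transducin gene gnat1, did, at 11121, 10950 and 10621 CPM against 6804, 6692 and 9128 CPM (log2 difference 0.48 ± 0.24). Of the 25 rod genes 23 had a positive difference and 2 a negative one. The median of the rod list was 0.85 within hormone and 0.28 within vehicle.

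Among cone genes the transducin subunit gene gnat2 reached 4771, 3312 and 2751 CPM against 1852, 2454 and 2000 CPM, in order within each treatment but with a log2 difference of 0.87 ± 0.23. The inhibitory phosphodiesterase subunit gene pde6h was higher by 0.31 ± 0.24. A low-abundance transducin beta gene, gnb3a, had 18.4, 16.7 and 12.4 CPM against 5.2, 7.11 and 4.4 CPM. The green cone opsin gene opn1mw1 was at 44.3, 65.5 and 231 CPM against 6.36, 21.4 and 49.6 CPM. Its vehicle replicate 2 stood far above the others, and the green opsin genes are near-identical tandem copies, so that the split of reads between them is uncertain. Of the shared genes, the vitamin A carrier genes rbp4l and irbp had log2 differences of 0.08 ± 0.24 and -0.13 ± 0.22.

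**Figure D3:**
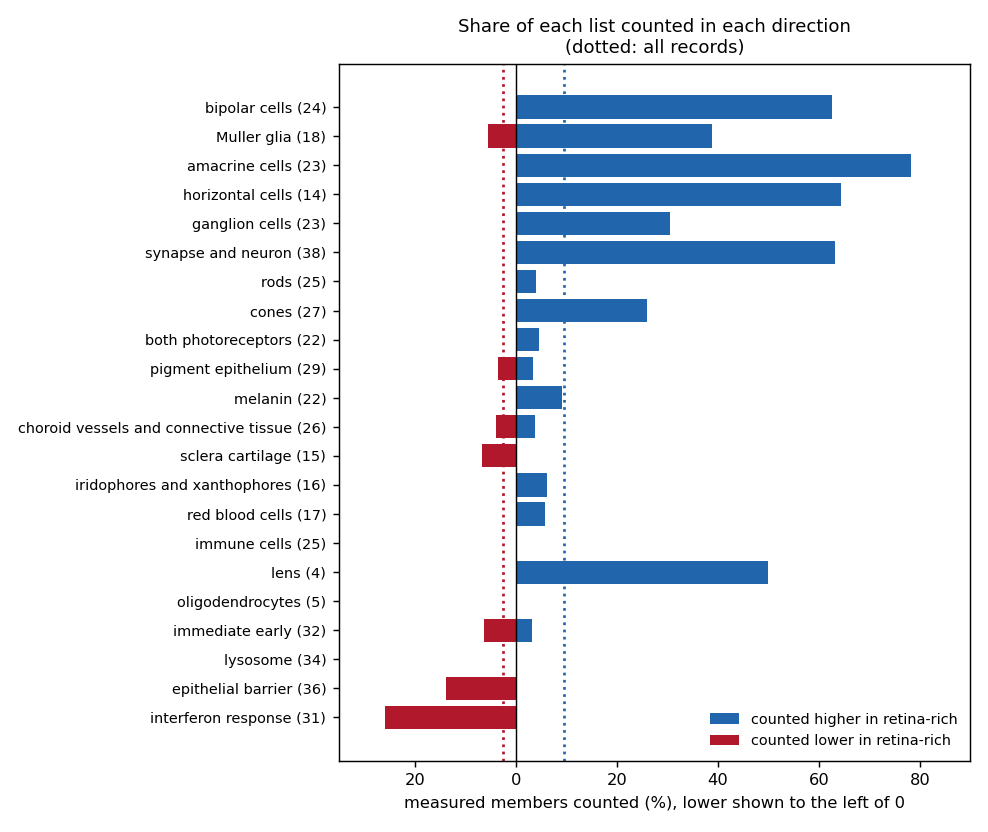
Percentage of the measured members of each list counted higher (blue, right) or lower (red, left) in the retina-rich libraries, with dotted lines at 9.58% and 2.62%, the shares of all 18315 records. The amacrine, horizontal, synaptic and bipolar lists reach furthest right, and only the epithelial barrier and interferon lists reach beyond 10% on the left.

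Pigment epithelium genes were lower in the rich hormone library and nearly level between the vehicle libraries. The list summed to 23444 CPM in hormone replicate 1 and to 63609 and 53255 CPM in hormone replicates 2 and 3, against 22317, 22170 and 23412 CPM in the 3 vehicle libraries. In bulk RNA, fewer cells of a type and less RNA per cell cannot be told apart. Of 29 measured genes 22 had a negative log2 difference, yet only 1 was counted lower and 1 higher, shares near or under those of all records. The median difference was -0.95 within hormone and -0.13 within vehicle, and leaving out hormone replicate 1 brought the median of the list from -0.62 to -0.12. Without vehicle replicate 3 it was -1.02. The counted gene was rgrb, an opsin of the RPE that takes part in the visual cycle, at 2412, 2758 and 2852 CPM in the rich libraries and 8664, 7491 and 3516 CPM in the poor ones. The integrin gene itgb5, whose product helps RPE take up outer segments, went the other way, at 25.0, 21.6 and 22.3 CPM against 9.17, 13.1 and 10 CPM. For rpe65a the fitted difference of -0.55 ± 0.40 became 0.14 without hormone replicate 1.

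Melanin genes showed the same division between the treatments. Their mean log2 CPM was 5.59 in hormone replicate 1 and 6.08 and 6.06 in hormone replicates 2 and 3, but 5.65, 5.62 and 5.59 in the vehicle libraries. Of 22 measured genes 2 were counted higher and none lower, near the 9.58% and 2.62% of all records. A negative difference was found for 16, and the median of the list was -0.63, or -0.41 under total count scaling. The melanin enzyme gene tyrp1b was at 605, 802 and 671 CPM in the rich libraries and 1779, 1659 and 901 CPM in the poor ones. Another enzyme of the pathway, dct, stood at 542, 977 and 887 CPM against 1277, 1093 and 1042 CPM. Both were lowest in hormone replicate 1, and the rich minus poor difference within hormone was -1.51 for tyrp1b and -1.12 for dct, and within vehicle it was -0.30 and -0.16. The counted members tfap2e (2.1 ± 0.38) and slc24a4a (1.35 ± 0.17) are an AP-2 factor and an ion exchanger. Lysosome genes, whose products digest outer segments in the RPE, had a median of -0.30 over 34 genes, or -0.07 under total count scaling, with none counted. Their most abundant members per kilobase, ctsd and psap, had -0.79 ± 0.24 and -0.71 ± 0.26. Genes of iridophores and xanthophores had a median of -0.22, or 0.00 under total count scaling, with 1 of 16 counted higher, the receptor gene ltk at 1.04 ± 0.36. Their abundant members pnp4a and gch2 were at -0.80 ± 0.27 and -0.73 ± 0.23.

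**Figure D4:**
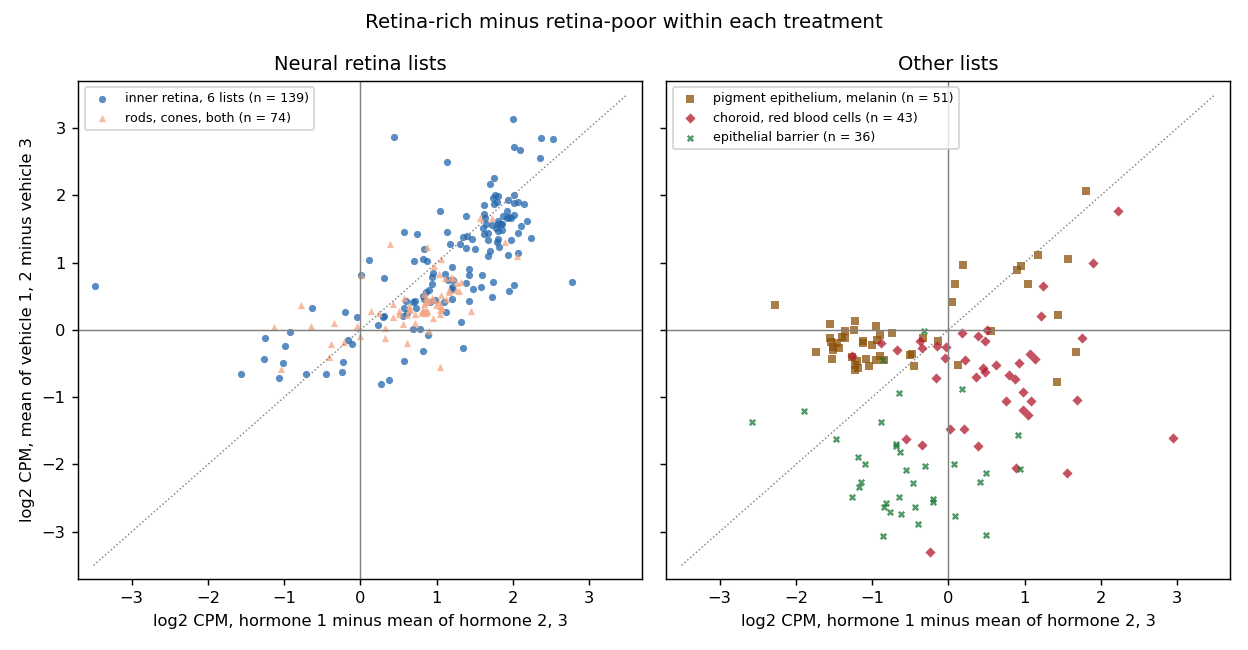
Each point is a gene, placed by its rich minus poor log2 CPM difference within hormone (horizontal) and within vehicle (vertical); the dotted line marks equal differences. Many inner retina genes lie near the line at the upper right, with list medians of 1.27 and 1.37 for bipolar cells, but ganglion cell genes lie below it (1.12 and 0.33) and 8 of 18 Muller glia genes have a negative fitted difference; most pigment epithelium and melanin genes lie left of 0 near the horizontal axis, and most epithelial barrier genes lie well below it.

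Of the 479 records counted lower in the rich set, 300 were highest in vehicle replicate 3, 140 in hormone replicate 2 and 39 in hormone replicate 3; the counting rule leaves few other orders. Without vehicle replicate 3 the count was 1794, without hormone replicate 1 it was 1006, and without hormone replicate 3 it was 844. Leaving out a library drops comparisons from the rule, so these counts come from looser rules. Among the 10 largest, evpl and ppl encode plakins that tie keratin to cell junctions in surface epithelia. The level of evpl was 7.21, 5.79 and 12.1 CPM in the rich libraries and 37.4, 7.31 and 31.6 CPM in the poor ones, and ppl stood at 23.6, 28.9 and 46.7 CPM against 112, 38.8 and 114 CPM. The skin lipid transporter gene abca12 was at 2.54, 9.83 and 6.49 CPM against 22.6, 11.4 and 21.0 CPM. In each of these genes hormone replicate 3 was within or just above the range of the rich libraries.

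Another 3 of the 10 are interferon or antigen presentation genes. The interferon factor gene irf7 had 7.47, 10.2 and 19.2 CPM against 30.9, 7.72 and 64.0 CPM (log2 difference -1.82 ± 0.52). The MHC class I gene mhc1uda was at 20, 33.9 and 30.3 CPM against 130, 38.8 and 101 CPM. Unlike these, mhc1ufa was highest in hormone replicate 3, at 28.0, 17.8 and 5.14 CPM against 85.6, 90 and 45.6 CPM. Class I genes are a family of close copies, and reads may be split between them. The other named records counted lower were ogfr2, gfus.2 and znf185, which the file lists under clone names, and cyp24a1, with log2 differences of -2.06 ± 0.56, -1.81 ± 0.43, -1.98 ± 0.33 and -1.63 ± 0.19.

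Lists for these kinds of genes were written after the values were seen and are a description only. Of 36 measured epithelial barrier genes (keratins, claudins, plakins and the like) all had a negative difference, 5 were counted lower and the median was -1.71. The list summed to 2653 and 2207 CPM in hormone replicate 2 and vehicle replicate 3 and to between 508 and 703 CPM in the other 4 libraries. Hormone replicate 3, which is a poor library, had the lowest sum, and 31 of the 36 were not counted. The keratin gene krt5 was at 56.8, 61.9 and 67.5 CPM against 472, 40.0 and 362 CPM, and krt91 at 97.1, 86.1 and 62.4 CPM against 710, 32.3 and 410 CPM. Of 31 interferon response genes 8 were counted lower and none higher, with a median of -0.71. Of all records 2.62% were counted lower. The most lowered, ifit8, was under the 3-count level in hormone replicate 1. The abundant members b2ml and b2m had -0.28 ± 0.14 and -0.66 ± 0.21. Whether the epithelial and inner retina levels are linked across libraries was not tested.

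Few genes of other tissues of the eye were counted. Of all records 9.58% were counted higher and 2.62% lower, so in lists this small such counts do not set these tissues apart. Immune cell genes leaned lower in the rich set in both treatments: 24 of 25 had a negative difference, with medians of -0.36 within hormone and -0.71 within vehicle, although none was counted. They summed to 1061 CPM in vehicle replicate 3 against 545 to 775 CPM elsewhere. Their abundant members iclp1 and ccl34b.1 were at -0.53 ± 0.16 and -0.75 ± 0.20. Red blood cell genes varied widely between replicates: the haemoglobin gene hbaa1 was at 674, 1293 and 493 CPM in the rich libraries and 423, 278 and 1823 CPM in the poor ones, and ba1 followed it at 678, 1216 and 441 CPM against 403, 253 and 1519 CPM. The carbonic anhydrase gene cahz was the only 1 of 17 counted, at 104, 95.3 and 67.0 CPM against 27.0, 28.3 and 39.8 CPM, and carbonic anhydrase is made by Muller glia as well as red cells. Choroid vessel and connective tissue genes were higher in hormone replicate 1 than in the other hormone libraries by a median of 0.39 and lower in the rich vehicle libraries by 0.51. The list median of -0.17 turned to 0.35 without vehicle replicate 3 and to 0.06 under total count scaling. The endothelial cadherin gene cdh5 was counted higher, at 26.4, 12.5 and 9.11 CPM against 3.39, 8.75 and 3.0 CPM, and the collagen gene col1a1b lower, at 1.87, 1.51 and 1.35 CPM against 3.22, 2.47 and 4.8 CPM. The abundant members sparc and pdgfrb had -0.53 ± 0.18 and -0.48 ± 0.13.

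Of 15 scleral cartilage genes 1 was counted, col9a3, lower at -1.0 ± 0.18, and the median was -0.50, with sox9a at -0.68 ± 0.18 and sox9b at -0.59 ± 0.30. Immediate early genes, which respond to handling and stress, had a median of -0.40 with egr2a and fosl1 counted lower and egr4 higher among 32. Their sum was 6281 and 5982 CPM in vehicle replicates 2 and 3 and 2300 to 3177 CPM in the other libraries, so it did not follow the split. The list member hsp70 made up 2899 and 3204 CPM of these 2 sums, so it is not a separate sign of the same pair. Only 4 lens genes were measured, of 41 listed; cryba4 was at 28.7, 4.76 and 8.21 CPM against 4.54, 6.38 and 2.1 CPM, and cryabb and crygs2 had log2 differences of 1.6 ± 0.81 and 0.97 ± 0.86. Of 15 oligodendrocyte genes listed 5 were measured and none counted, with sox10, also a gene of pigment cells, at -0.65 ± 0.22 and mag at -0.52 ± 0.24.

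The treatment labels were not used to form the sets, and hormone against vehicle was tested with the split in the fit. The split was itself selected on measured transcripts of these libraries, which the hormone SE and adjusted p do not cover. With the split, edgeR's quasi-likelihood test called 407 of 18315 records at a Benjamini-Hochberg adjusted p under 0.05, or 2.22%, of which 221 (1.21%) were higher and 186 (1.02%) lower with hormone. Without the split the same test called 1 record, 0.00546%, although 1260 had an unadjusted p under 0.05, and DESeq2 with the split called 995. With the inner retina score in place of the split it called 446 records, 2.44%, of which 282 were among the 407. Leaving out a library with the split in the fit gave between 22 calls, without vehicle replicate 1, and 632, without vehicle replicate 3. The counts were 69 without hormone replicate 1, 226 without hormone replicate 2, 40 without hormone replicate 3 and 32 without vehicle replicate 2.

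The split did not level the inner retina between treatments. Within the rich set the hormone library had the highest inner retina score, 5.16 against 4.85 and 4.69, and within the poor set the hormone libraries had 3.88 and 4.20 against 3.79. In the fit with the split, the 139 inner retina genes had a median hormone difference of 0.34 on the log2 scale, and 13 passed the test, 11 of them higher. Of all records 2.22% passed, 1.21% higher. The sets were selected on inner retina transcripts, so these calls are not read as a result about the genes. With the score in the fit the median was -0.05 and 2 passed, and with treatment alone it was -0.02 and none passed. The score is the mean of these same 139 genes, so its fit removes most of their shared hormone difference by construction. Over all records the median hormone difference was 0.02 with the split. Of the 1755 records counted higher in the rich set, 91 (5.19%) passed the hormone test with the split, against 2.22% of all records, and 89 of them were higher with hormone. With the score 52 (2.96%) passed, against 2.44% of all records, and 32 of them were higher. Of the 479 records counted lower, 23 (4.8%) passed with the split, 20 of them lower with hormone. With the score 19 (3.97%) passed, 10 of them higher. Among records counted in neither direction 293 (1.82%) passed with the split, 129 higher and 164 lower. Whether these calls and the inner retina score are linked was not tested.

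**Figure D5:**
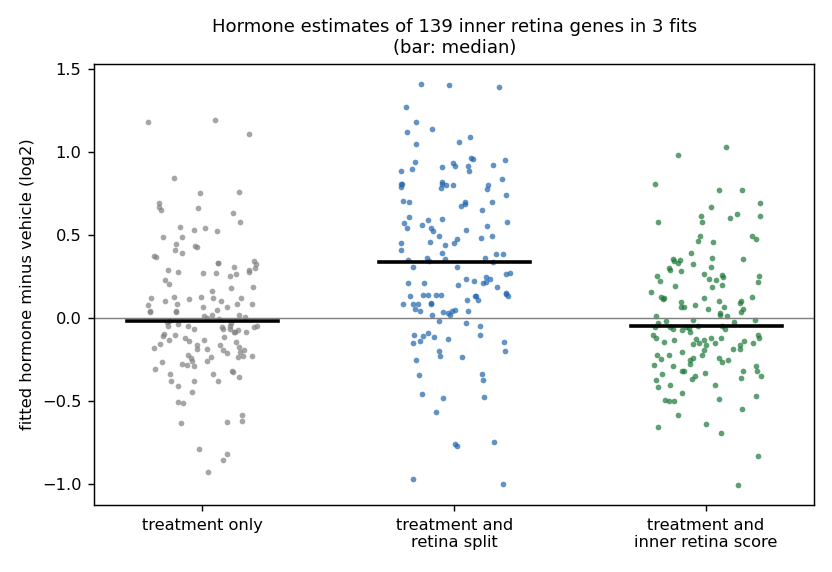
Fitted hormone minus vehicle log2 differences of the 139 inner retina genes, 1 point per gene, in fits with treatment alone, with the retina split and with the inner retina score; black bars are medians, at -0.02, 0.34 and -0.05. The points of the middle fit sit higher than those of the others. The score is the mean of these same genes, so its fit levels them by construction.

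Described here are the 5 records with the smallest p in each direction. The cytochrome P450 gene cyp24a1, which inactivates vitamin D, was at 159, 367 and 526 CPM with hormone and 12.0, 15.0 and 46.6 CPM with vehicle, in replicate order. Its hormone difference was 3.41 ± 0.20 on the log2 scale (edgeR adjusted p = 0.00341), and within each treatment the rich libraries were the lower ones. The bZIP factor gene nfil3-3 was at 41.0, 22.5 and 21.7 CPM with hormone and 5.08, 4.15 and 1.8 CPM with vehicle, a difference of 3.31 ± 0.17 (edgeR adjusted p = 0.00341). The dehydrogenase family gene dhrs12la, at 11.9, 11.6 and 11.5 CPM against 0.555, 0.812 and 0.8 CPM, was the record called without the split (edgeR adjusted p = 0.0175). Its rich minus poor log2 difference was -0.03 ± 0.23. Every record held at least 1 CPM in at least 3 libraries, which dhrs12la reached through the hormone libraries alone. The actin assembly gene fmn1 was at 41.2, 9.17 and 10.5 CPM with hormone and 6.5, 7.85 and 1.9 CPM with vehicle. The hormone libraries lay above the vehicle ones in both sets, and its difference was 2.47 ± 0.17 (edgeR adjusted p = 0.00399). The transporter-like record LOC100332494 rose by 1.97 ± 0.14.

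On the other side the secreted protease gene htra1b was at 15.5, 8.42 and 10.4 CPM with hormone and 93.5, 72.3 and 51.3 CPM with vehicle, a difference of -2.44 ± 0.16 (edgeR adjusted p = 0.00399). The autophagy kinase gene ulk1a was at 13.7, 19.2 and 18.4 CPM against 53.5, 51.9 and 56.1 CPM, without overlap. The monocarboxylate transporter family gene slc16a9a (-1.33 ± 0.10) and the membrane peptidase gene mmel1 (-2.49 ± 0.21) were also lower, and both were lower in the rich libraries within each treatment. The record LOC100150789 was at 0.267, 0.33 and 0.618 CPM with hormone, about the 3-count level, and at 15.3, 8.12 and 18 CPM with vehicle. That record reached 1 CPM through the vehicle libraries alone. Over 13 alternatives, these records were called in 10 to 12, with adjusted p up to 0.688 for fmn1, and the replicate block was among those without a call.

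For cyp27c1, the enzyme that makes vitamin A2, the level was 3261, 8943 and 6751 CPM with hormone and 183, 217 and 124 CPM with vehicle. All hormone libraries lay above all vehicle ones, with a difference of 5.0 ± 0.50 on the log2 scale (edgeR adjusted p = 0.0122, and 0.0571 with treatment alone). It was called in 9 of 13 alternatives, with adjusted p up to 0.138. Within hormone the rich library was the lowest, as for rpe65a and rgrb, while within vehicle the rich libraries lay above the poor one, so the fitted difference between the sets was -0.30 ± 0.48.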

How the data were processed

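Per the labels' protocols, RNA of dissected zebrafish RPE was taken with a column kit and DNase, and the 6 libraries were amplified and sequenced together. Bowtie 0.12.7 and edgeR are named per the submitters' processing notes; the sources used here do not name the transcript set. The authors deposited raw counts per transcript record. The column totals, held in a nameless line, were left out. No record of the 18315 was under 1 CPM in more than 3 libraries, and filterByExpr kept them all. The bullfrog libraries were not used. Replicates are not stated to come from separate animals. Total counts limit precision: 3 counts correspond to 0.24 to 0.40 CPM, which covers counting error only.

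Counts were scaled by TMM and fitted with edgeR 4.0.16 in R 4.3.3 (quasi-likelihood, split and treatment as terms, 3 residual degrees of freedom). Log2 CPM used a prior count of 2. Each SE was derived from the F statistic of its term, and no SE or adjusted p covers the selection of the sets. The hormone test is two-sided, with Benjamini-Hochberg adjustment over all records. DESeq2 1.42.0, RLE and total count scaling, no treatment term, a stricter order or size, the replicate block and leaving out each library were alternatives. The fits were tested on simulated data with 50 records changed by hormone at each size. The fit with the split recovered 40% of log2 differences of 1 and 88% of those of 2. It called 179 records, 16 of them without a simulated hormone difference, and the fit without the split called 169, 7 of them without. The simulated split changed only a small share of the records, so these values do not carry over to the calls on the real libraries.

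The sets, the 20 gene lists and the rules were chosen with earlier results of these data known, and 2 more lists were written after values were seen. Of records with the same symbol, the one with the highest mean represented it. Named were the 4 markers, per direction the 10 counted records with the largest difference, a mean of at least 8 CPM and a gene name, per list 2 members with the highest CPM per kilobase and up to 2 counted with the largest difference, cyp27c1 and up to 5 records per side of the hormone test. cx43.4, ptgds and fosl1 were named after their values were seen, and 1 gene that the rule names is not reported here. Clone names were replaced through the RefSeq table of GRCz12tu, which held 12528 of the accessions.

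Replicate numbers carry no stated pairing. Deviations from the group mean correlated at 0.46, -0.40 and 0.11 for replicates 1, 2 and 3. These deviations also hold the rich and poor difference, so they cannot show whether the numbers pair the samples.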

Additional observations from a re-analysis of the deposited data

Results flagged for a closer look

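For 2 lists and 7 named genes every rich library lay on 1 side of the poor ones within hormone and on the other side within vehicle, which was not tested. The values below are the log2 difference within hormone minus that within vehicle. The gap was -0.53 for the mean of the melanin list and 1.31 for choroid vessels and connective tissue. Within vehicle the melanin mean differed by only 0.04. The median difference of the melanin genes there was -0.21, of the same sign as within hormone. Among the genes the gap was -1.36 for rpe65a, -0.97 for clu, -0.45 for irbp, -1.94 for cyp27c1 and -4.13 for ptgds, all lower in the rich library with hormone. The haemoglobin genes hbaa1 and ba1 had 2.17 and 2.14, and they were highest in vehicle replicates 3 and 1. Each arm has 1 library on 1 side, hormone replicate 1 or vehicle replicate 3, so the arm and that library cannot be told apart.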

How the results depend on the processing

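Counts of records higher in the rich set were within 1.5 times of 1755 under all alternatives run except a log2 difference of at least 2, which left 171; leaving out each library gave 1555 to 2261. Records lower in the rich set were less stable: 227 by total counts, 262 with all 3 libraries beyond all 3 others, 64 at a log2 difference of at least 2, 884 with the replicate block, and 485 to 1794 when a library was left out. The 407 hormone calls became 995 with DESeq2, 1 without the split, 22 at an adjusted p under 0.01 and 22 to 632 when a library was left out. With the replicate block and the split there were 0 calls by edgeR (2451 at an unadjusted p under 0.05; 1 residual degree of freedom). The replicate numbers share no stated source. Hormone replicate 2 correlated better with vehicle replicate 3 (0.62), also a retina-poor library, than with vehicle replicate 2. The stricter rules keep fewer records by construction. Leaving out a library drops comparisons from the counting rule, so those counts of higher and lower records come from looser rules. Without hormone replicate 1 or vehicle replicate 3 the order was required within 1 treatment only. The cause of the other shifts was not tested. Of 286 alternative values of list medians 218 moved by less than the residual SD, and of 1020 for the split differences of named genes 819 did. Among 143 alternative values of the named hormone differences none changed sign and 24 lost the call. The 3 residual degrees of freedom and the 6647597 counts of hormone replicate 1 limit what can be detected.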

Other observations

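Record length did not separate the sets by much. The share of records counted higher was 8.54% among the shortest 4579 records and 11.3% among the longest 4577, and the medians of all differences were -0.10 and 0.02. The TMM factors were 1.13, 1.07 and 1.04 in the rich libraries and 0.966, 0.870 and 0.945 in the poor ones, so the sets also differed in composition. At a mean of at least 8 CPM 6.67% of 11128 records were counted higher and 1.36% lower.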
